A study of Mus musculus with 12 samples.

Results

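The subunits of the glutamate and GABA receptors form a set of 41 genes among the 31208 genes of the count table, 22036 of which carry an Ensembl identifier. They were taken by symbol, from the Ensembl rows whose names begin with Gria, Grin, Grik, Grid, Grm, Gabra, Gabrb, Gabrg, Gabrd or Gabbr, leaving out genes of other proteins whose names begin alike. Described here are 36 of the 41, and every count of members below is over these 36: 4 AMPA, 7 NMDA, 5 kainate, 1 delta and 7 metabotropic glutamate receptor genes, 24 in all, and 10 GABA-A and 2 GABA-B receptor genes, 12 in all. The rule itself uses symbols and no measured value.

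The data are long-read cDNA counts from the brains of 12 C57BL/6 mice aged 8 weeks. The 4 sham mice had no ischemia. The 4 mice of the vehicle group and the 4 of the lactate group had cerebral ischemia for 6 h, produced by a filament in the middle cerebral artery, and had received vehicle or lactate into the cerebral ventricle as a preconditioning treatment. The comparisons ask which transcripts differ in the ischemic brain and whether additional lactate shifts them. According to the methods the vehicle was saline and the lactate of the sequenced mice was D-lactate, whereas the sample labels name lactate only. The sham mice carry no treatment label, so the injection and the ischemia cannot be told apart in a comparison with sham, and the labels name the tissue only as brain. The study occluded the left middle cerebral artery and speaks of ischemic brain tissue. The region sequenced, and the side taken from sham mice, are not given in the sources used here.

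Ionotropic glutamate receptors are cation channels that carry most fast excitation in the brain. AMPA receptors open and close quickly, NMDA receptors admit calcium once the membrane is depolarised, and kainate receptors also sit at presynaptic sites. Metabotropic glutamate receptors act through G proteins. GABA-A receptors are chloride channels built from 5 subunits, at most synapses from alpha, beta and gamma subunits, and carry most fast inhibition, while GABA-B receptors are G protein-coupled and inhibit more slowly. Glutamate released during ischemia drives calcium into neurons through ionotropic glutamate receptors, which is why these receptors have long been studied in stroke.

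Total counts ran from 6815920 to 10677224 per mouse, so that 3 counts, taken here as the limit of detection, correspond to 0.281 to 0.440 CPM, the deposited unit of counts scaled to the library total. All levels are CPM, which is not divided by transcript length, so levels are compared between mice and not between genes. Of the 36 genes, Gabra6 had no count in any mouse and Grm6, a retinal receptor, had 3 counts over all mice. A gene was tested where it reached 1 CPM in at least 4 of the 8 mice compared. This left 33 members in each comparison with sham and 34 in the comparison of lactate with vehicle, where Grin3b entered.

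Gabrb2, which encodes the beta 2 subunit of GABA-A receptors, was the lone member described here that passed the test, with lower levels in lactate against sham. That call depended on the mice and settings used. It held in 2 of the 8 fits that left out 1 mouse, and was lost in a fit of all 12 mice (edgeR adjusted p = 0.0917) and with Ensembl genes only (0.0598), with adjusted p from 0.0144 to 0.106 over all alternatives. The log2 difference of Gabrb2 in vehicle against sham, -0.53, did not pass. In the comparison of vehicle with sham, 0 of 33 members passed (edgeR quasi-likelihood test, adjusted p under 0.05 over all 17019 genes tested), against 1.29% of all genes called higher and 0.182% called lower. DESeq2 and limma voom also called 0 members. At an unadjusted p under 0.05, 2 members were lower (Gabrb2 and Gabrd) and 1 was higher (Gabbr1), beside 5.21% and 8.58% of all genes.

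Lactate against sham gave 1 lower member of 33 (Gabrb2) and 0 higher. Over the 17262 genes tested, 3.55% were called lower and 8.76% higher. At an unadjusted p under 0.05, 10 members were lower and 1 was higher, beside 11.4% and 15.6% of all genes. The median log2 fold change of the members was -0.21, with 24 below 0 and 9 above, whereas the median of all genes was -0.03, with 53.1% of them below 0. With Ensembl genes only, the median of the members was -0.16, again with 24 below 0 and 9 above, and 0 members passed. An offset for the GC content and length of the transcripts was added to that restriction, a setting chosen after the data were seen. The median of the members was then -0.06 with 20 below 0 and 13 above, and 0 members passed.

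Lactate against vehicle gave 0 of 34 members in either direction, by edgeR, DESeq2 and limma voom, and 1 of all 17419 genes passed, a share of 0.00574% called lower and 0% called higher. At an unadjusted p under 0.05, 1 member was lower (Grik2) and 0 were higher, beside 3.93% and 4.91% of all genes. No member had all lactate mice below or all above the vehicle mice, beside 1.83% and 2.99% of all genes. The fold changes of 28 members lay below 0 and of 6 above, with a median of -0.15. The median of all genes was -0.03, with 54.4% of them below 0, and that of the Ensembl genes was -0.06. In the longest 25% of transcripts the median was -0.09 over 3292 genes and -0.16 over 18 members. With Ensembl genes only the split stayed 28 and 6, and with the offset for GC content and length added it was 23 below and 11 above.

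**Figure D1:**
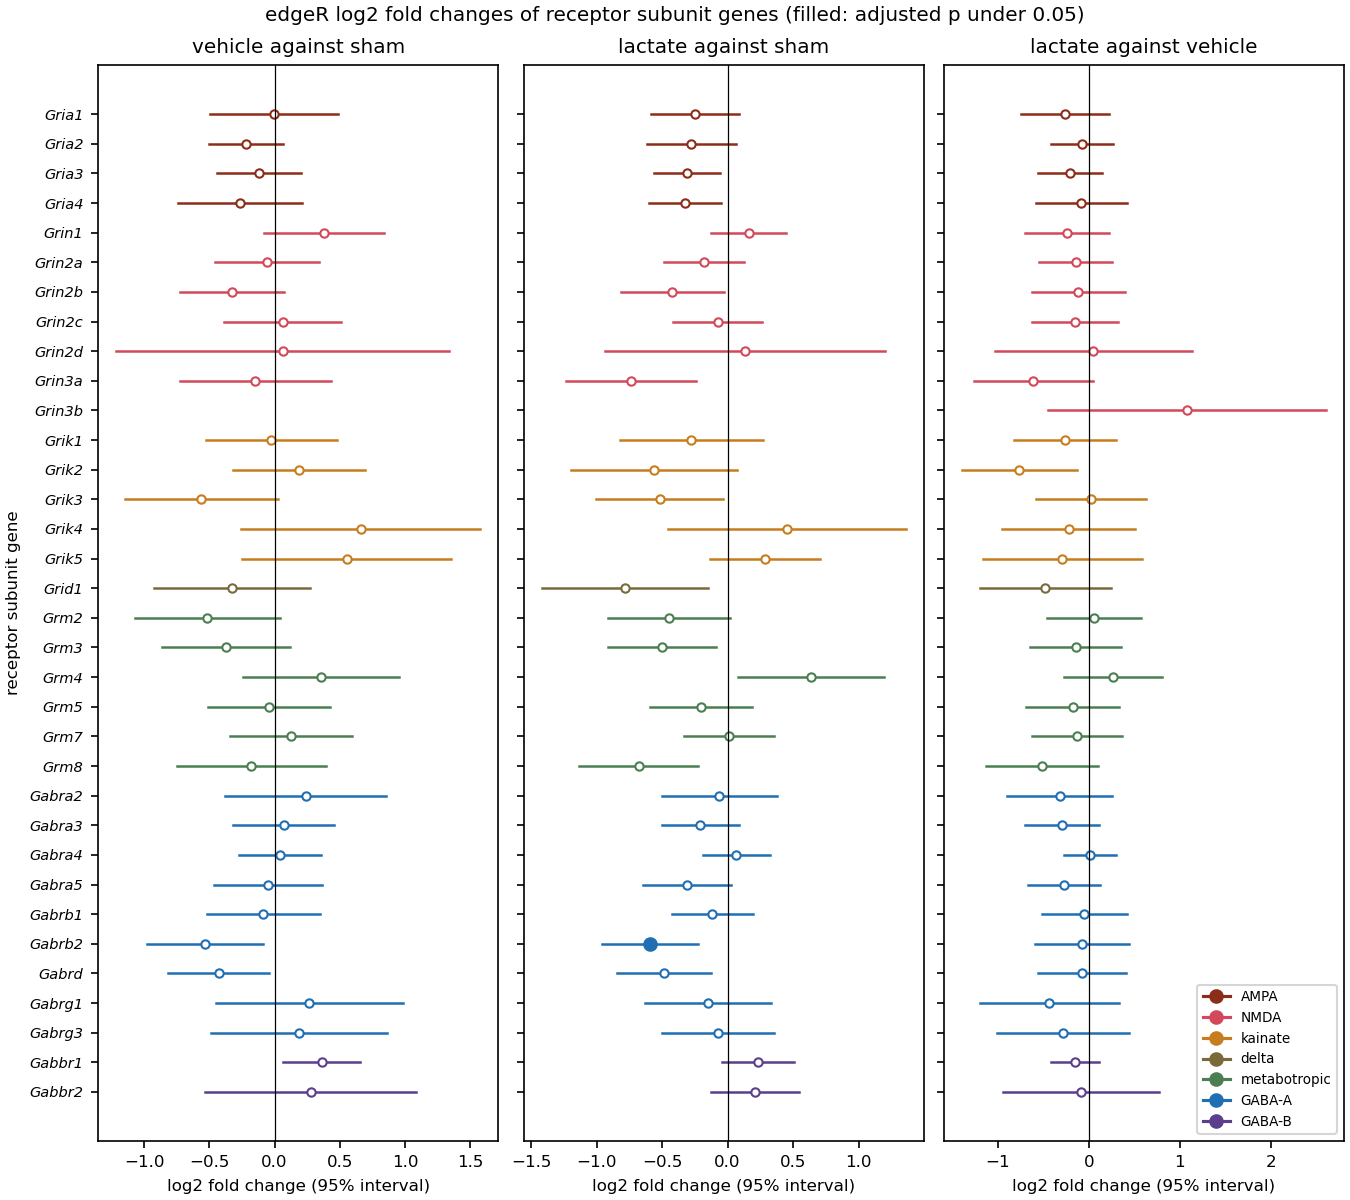
Log2 fold changes from edgeR (horizontal axis, with 95% intervals) of the subunit genes that were tested, for vehicle against sham, lactate against sham and lactate against vehicle; colours mark the receptor family and filled points an adjusted p under 0.05. The 1 filled point is Gabrb2 in lactate against sham, and most intervals in the other panels cross 0.

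Gabrb2 (ENSMUSG00000007653) lies on chromosome 11, from 42419757 to 42629028 on the plus strand in GRCm38. Gabra6 runs from 42306437 to 42321072 on the minus strand, head to head with it. The promoter windows of these neighbours are shown because Gabrb2 was the 1 member called, in lactate against sham, while Gabra6 had no count. That call was lost under several settings, as given above. RefSeq gives windows, from 250 bases before to 50 after the start, for both genes. The Gabrb2 window with the motif, which is one of 3 listed for the gene, is chr11:42420190-42420489 on the plus strand and the Gabra6 window is chr11:42321023-42321322 on the minus strand, both in GRCm38.p6. Capitals mark a TATA box (TATAAA), which begins 30 bases before the start.
Gabrb2: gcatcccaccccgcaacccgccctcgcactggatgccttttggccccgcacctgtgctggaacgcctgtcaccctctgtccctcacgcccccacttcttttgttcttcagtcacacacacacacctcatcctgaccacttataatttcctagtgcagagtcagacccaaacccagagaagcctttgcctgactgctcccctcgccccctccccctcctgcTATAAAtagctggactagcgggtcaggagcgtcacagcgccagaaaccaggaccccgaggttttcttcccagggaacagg
Gabra6: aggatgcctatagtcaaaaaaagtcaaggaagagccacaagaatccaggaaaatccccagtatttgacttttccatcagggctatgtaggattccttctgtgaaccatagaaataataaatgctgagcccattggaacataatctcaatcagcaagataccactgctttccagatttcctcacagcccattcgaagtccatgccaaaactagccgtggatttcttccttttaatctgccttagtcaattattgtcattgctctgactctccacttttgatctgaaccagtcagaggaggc
The Gabrb2 window shown was 59.0% G and C, the other windows of this gene were 54.7% and 41.0%, and the Gabra6 window was 42.0%. The median was 60.7% over the 33 windows that matched 26 of the 36 members and 52.7% over all 32851 windows. The letters TATAAA, searched on both strands, were found in 4 of the 33 member windows (2 of Gabra3 and 1 each of Gabrb2 and Grin3b) and in 13.6% of all windows. The 2 Gabra3 windows overlap and share the same stretch, on the opposite strand. It begins 235 or 123 bases before the start, depending on the window. The cAMP response element TGACGTCA occurred in 0 of the 33 and in 1.79% of all windows. The AP-1 element TGANTCA, bound by Fos and Jun proteins, occurred in 2 (Grin3b and Grm8) and in 7.81% of all windows. These counts describe letters in a short window only.

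Gabrb2 encodes the beta 2 subunit, one of the beta subunits that form the GABA binding site together with alpha subunits. Gabrb2 measured 26.5, 21.4, 28.5 and 26.8 CPM in the sham mice, 13.9, 23.1, 12.9 and 19.8 CPM in the vehicle mice and 15.8, 11.98, 19.1 and 20.1 CPM in the lactate mice. The lactate mice all lay below sham, whereas vehicle mouse 2 lay within the sham range. The log2 fold change of lactate against sham was -0.59 (SE 0.17, 95% interval -0.96 to -0.22, edgeR adjusted p = 0.0377). Vehicle against sham gave -0.53 (edgeR adjusted p = 0.275), and lactate against vehicle -0.07 (95% interval -0.59 to 0.44). The call after lactate held without sham mouse 2 (edgeR adjusted p = 0.0354) or lactate mouse 4 (0.0311), but not without any 1 of the other 6 mice, where the edgeR adjusted p was 0.0505 to 0.106.

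**Figure D2:**
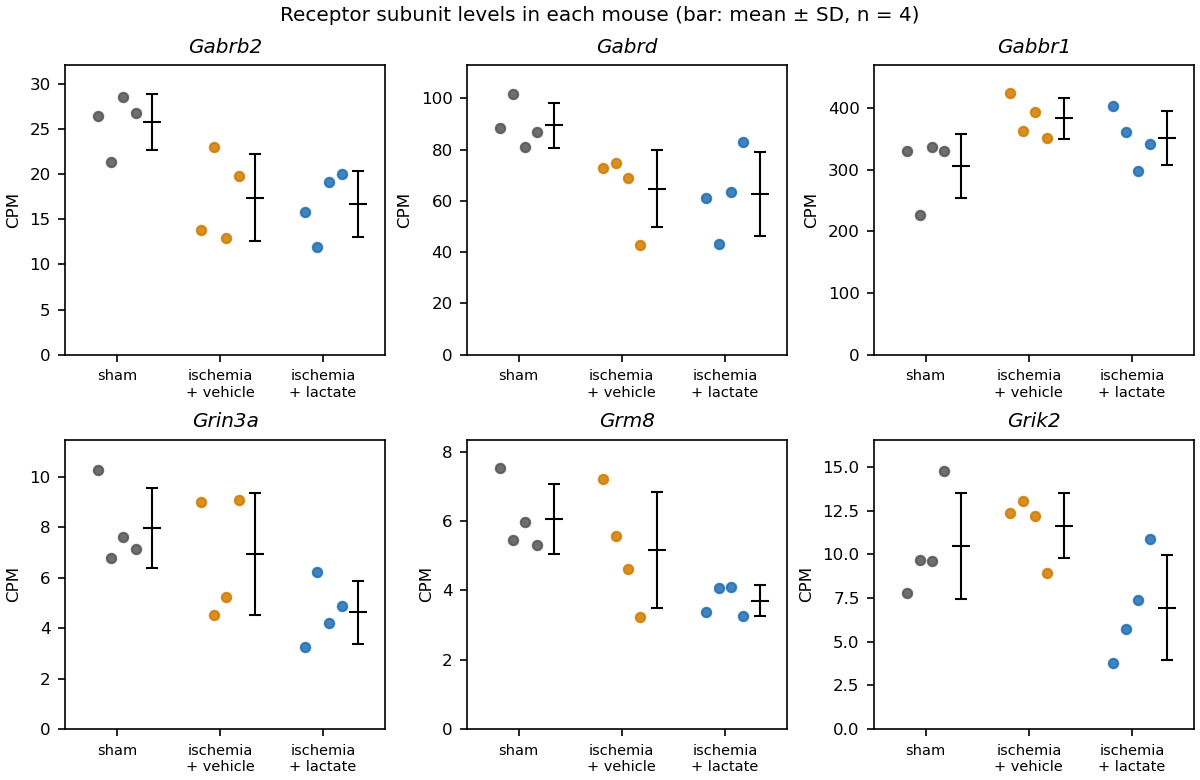
CPM (vertical axis, from 0) of Gabrb2, Gabrd, Gabbr1, Grin3a, Grm8 and Grik2 in each of the 12 mice, with the mean ± SD of each group of 4 as a bar. For Gabrb2 the lactate mice, at 11.98 to 20.1 CPM, lie below the sham mice, at 21.4 to 28.5 CPM, and for Grin3a the 4 lactate mice, at 3.25 to 6.23 CPM, lie below the sham mice, at 6.80 to 10.3 CPM.

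The other GABA-A genes tested did not pass in any comparison. Gabra2, Gabra4, Gabrb1 and Gabrg1, neighbours on chromosome 5, had log2 fold changes from -0.09 to 0.27 for vehicle against sham and from -0.15 to 0.07 for lactate against sham. Gabrg3 gave 0.19 and -0.07, and Gabra5, an alpha subunit of extrasynaptic receptors in the hippocampus, gave -0.05 and -0.31. Gabra3 encodes the alpha 3 subunit and had the smallest p of the family in lactate against vehicle. Gabra3 measured 30.1, 36.2, 32.6 and 33.7 CPM in the sham mice, 37.2, 31.6, 25.02 and 42.3 CPM in the vehicle mice and 25.7, 32.7, 24.9 and 29.3 CPM in the lactate mice. The groups overlapped, and the vehicle mice covered the widest range. Lactate against vehicle gave -0.29 (95% interval -0.70 to 0.11, edgeR adjusted p = 0.671), and -0.17 without vehicle mouse 4.

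Gabrd on chromosome 4 encodes the delta subunit of extrasynaptic receptors. Gabrd measured 88.6, 102, 80.9 and 87.1 CPM in the sham mice, 73.0, 74.9, 69.0 and 42.7 CPM in the vehicle mice and 61.3, 43.1, 63.7 and 82.9 CPM in the lactate mice. The vehicle mice all lay below sham, and lactate mouse 4 lay within the sham range. The log2 fold change was -0.43 after vehicle (edgeR adjusted p = 0.313) and -0.49 after lactate (edgeR adjusted p = 0.0755), so that neither difference passed. Without lactate mouse 4 the second was -0.64 and passed (edgeR adjusted p = 0.0213).

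Summed over the 10 genes described, the GABA-A family measured 247, 254, 252 and 255 CPM in the sham mice, 237, 229, 204 and 211 CPM in the vehicle mice and 204, 183, 207 and 224 CPM in the lactate mice. The sums of both ischemic groups lay below those of all sham mice. The means of Gabrd were 89.6 CPM in sham and 64.9 after vehicle and those of Gabrb2 were 25.8 and 17.4 CPM, and these differences together were about as large as that of the sum after vehicle. Of the 9 genes tested, 4 lay below 0 and 5 above in vehicle against sham (median log2 fold change 0.04), and 8 below and 1 above in lactate against sham (median -0.15). As a share of all member counts the family made up 13.3% to 16.8% in sham, 11.2% to 14.5% after vehicle and 11.98% to 13.8% after lactate, with overlap in both.

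These brains are bulk tissue, in which fewer cells of a type and less RNA per cell cannot be told apart. Of 12 general neuronal markers, 0 passed in either comparison with sham, and their summed level was 7241 to 7673 CPM in sham, 6442 to 8752 CPM after vehicle and 6290 to 7192 CPM after lactate, so that the lactate mice lay below sham. Of 9 inhibitory neuron markers, 0 passed, with sums of 835 to 957 CPM in sham, 698 to 1058 CPM after vehicle and 755 to 934 CPM after lactate. Of 9 excitatory forebrain markers, 0 passed, with sums of 2543 to 5759, 2631 to 6632 and 2459 to 5886 CPM. Over all genes tested, 1.29% were called higher and 0.182% lower after vehicle, and 8.76% and 3.55% after lactate. Counts of 0 in lists this short are near these shares. The part of cell composition in the GABA-A values was not tested.

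Gabra6 is a defining gene of cerebellar granule cells. Its 0 counts went together with 0 counts of Fat2 and Barhl1 and at most 2 counts of Cbln3 in any mouse, which are markers of the same cells. The whole list of 11 cerebellar markers includes some that neurons elsewhere also express. It summed to 567 to 812 CPM in sham, 555 to 657 CPM after vehicle and 467 to 654 CPM after lactate. Of the 8 tested, 1 (Neurod1) was called lower after lactate, beside 3.55% of all genes.

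The transcript of Gabrb2 is poor in G and C. Its longest annotated transcript was 44.0% G and C, which places it in the lowest 25% of genes, up to 44.6%. In that 25% the median log2 fold change of lactate against sham was -0.11 over 3292 genes and -0.21 over the 13 members it holds, while in the highest 25% it was -0.03 over all genes and 0.15 over 8 members. With Ensembl genes only, Gabrb2 had already not passed in lactate against sham. With the offset for GC content and length added, Gabrb2 was -0.53 (edgeR adjusted p = 0.0536) and again did not pass.

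GABA-B receptors are pairs of the subunits encoded by Gabbr1, which binds GABA, and Gabbr2, which couples to the G protein. Gabbr1 measured 330.2, 227, 337 and 330.4 CPM in the sham mice, 425, 362, 394 and 352 CPM in the vehicle mice and 403, 361, 299 and 342 CPM in the lactate mice. The vehicle mice all lay above sham, the lactate mice overlapped with it, and sham mouse 2 lay far below the other sham mice. The log2 fold change was 0.36 after vehicle (SE 0.14, edgeR adjusted p = 0.266), 0.23 after lactate (edgeR adjusted p = 0.265) and -0.15 in lactate against vehicle (95% interval -0.41 to 0.12). None of these passed. Without sham mouse 2 the value after lactate was 0.12. Lactate against vehicle was -0.07 without lactate mouse 3, -0.08 without vehicle mouse 1, -0.22 without lactate mouse 1 and -0.07 with the offset for GC content and length. The summed GABA-B level, most of it Gabbr1, was 254 to 361 CPM in sham, 373 to 491 CPM after vehicle and 323 to 440.3 CPM after lactate, so that the vehicle mice lay above sham. The lone member whose vehicle mice all exceeded sham was Gabbr1, beside 4.14% of all genes, and the lone member whose vehicle mice all lay below sham was Gabrd, beside 4.89%.

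**Figure D3:**
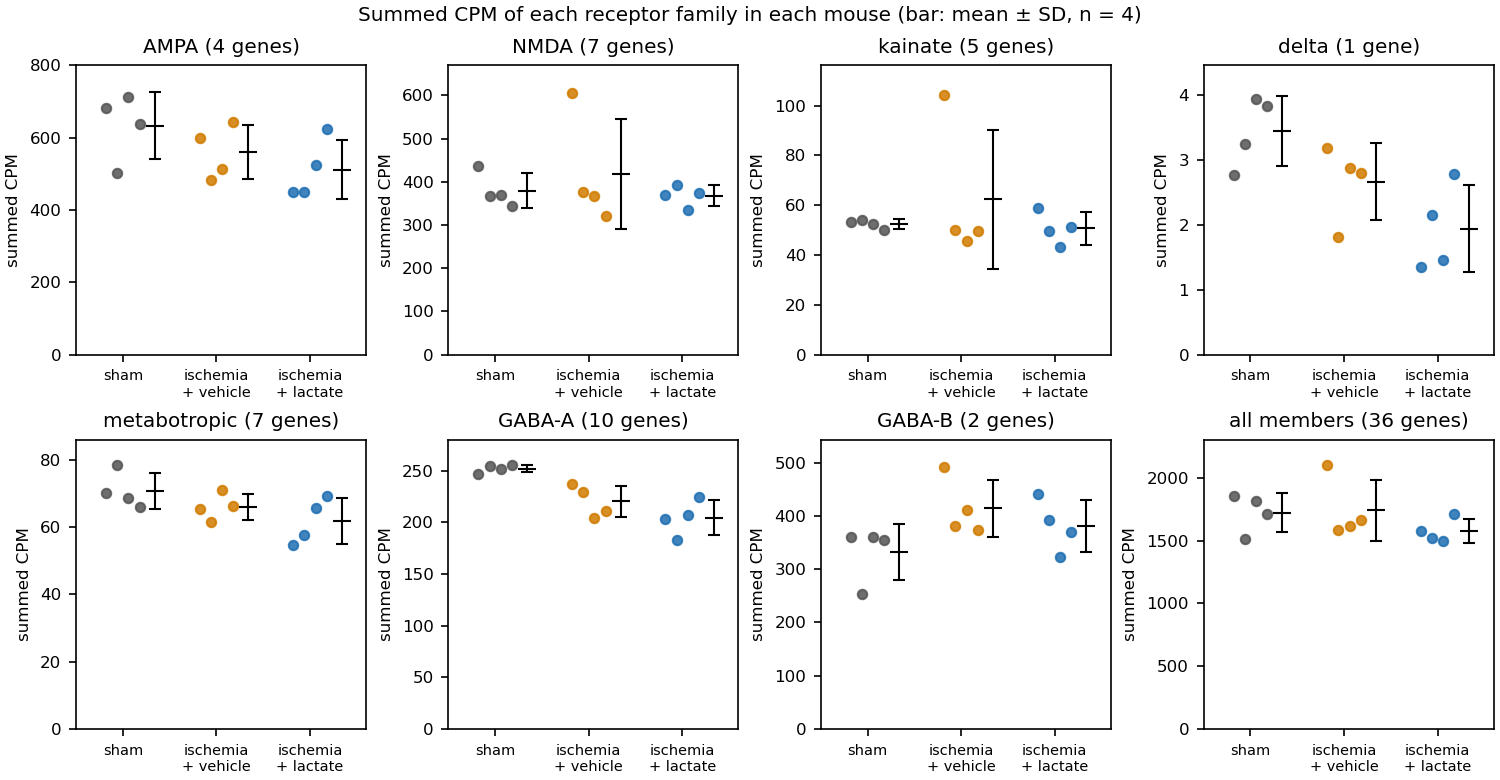
Summed CPM (vertical axis, from 0) of each receptor family and of the 36 members in each of the 12 mice, with the mean ± SD of each group of 4. The GABA-A sums, at 247 to 255 CPM in sham, lie above those of both ischemic groups, and the GABA-B sums of the vehicle mice, at 373 to 491 CPM, lie above those of sham, at 254 to 361 CPM. The sums of the remaining families overlap between sham and each ischemic group.

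NMDA receptors contain the obligatory GluN1 subunit, encoded by Grin1, with GluN2 subunits that bind glutamate (Grin2a to Grin2d) or GluN3 subunits (Grin3a and Grin3b) that bind glycine and lower calcium entry. No NMDA gene passed in any comparison. Grin3a had the smallest p of the family after lactate. Grin3a measured 10.3, 6.80, 7.61 and 7.15 CPM in the sham mice, 8.99, 4.53, 5.23 and 9.10 CPM in the vehicle mice and 3.25, 6.23, 4.22 and 4.87 CPM in the lactate mice. The lactate mice lay below sham, and the vehicle mice spanned both ranges. In lactate against sham the log2 fold change was -0.74 (SE 0.23, edgeR adjusted p = 0.0542), which DESeq2 (adjusted p = 0.0446) and limma voom (adjusted p = 0.0325) put under 0.05. With edgeR it passed without a filter on low counts (adjusted p = 0.0408). It also passed in 1 of the 8 edgeR fits that left out 1 mouse, the fit without lactate mouse 2 (log2 fold change -0.90, adjusted p = 0.0328). The edgeR adjusted p reached 0.152 in those 8 fits, and the adjusted p reached 0.112 over the other alternatives, so most settings did not pass. Lactate against vehicle gave -0.61 (95% interval -1.27 to 0.05, edgeR adjusted p = 0.588).

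Grin1 measured 287, 242, 213 and 192 CPM in the sham mice, 445, 269.6, 261 and 208 CPM in the vehicle mice and 281, 292, 219 and 229.9 CPM in the lactate mice. All 3 groups overlapped, with vehicle mouse 1 far above the rest. Vehicle against sham gave 0.38 (edgeR adjusted p = 0.464) and 0.11 without vehicle mouse 1. The share of Grin1 in the NMDA counts was 56.0% to 66.0% in sham, 64.8% to 73.6% after vehicle and 61.5% to 75.8% after lactate, overlapping in both. Grin2b, the GluN2B subunit of forebrain receptors, held 75.1% to 83.7% of the joint Grin2a and Grin2b counts in sham, 67.5% to 78.1% after vehicle and 70.1% to 79.8% after lactate, again with overlap. Its level differed by -0.42 on the log2 scale in lactate against sham (edgeR adjusted p = 0.157). Grin2d and Grin3b stayed at or below 2.16 CPM in every mouse.

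AMPA receptors are tetramers of GluA1 to GluA4, and GluA2, encoded by Gria2, keeps the edited channel impermeable to calcium. No AMPA gene passed in any comparison. Gria2 measured 397, 255, 347 and 356 CPM in the sham mice, 284, 269.9, 288 and 291 CPM in the vehicle mice and 258, 199, 282 and 354 CPM in the lactate mice. The groups overlapped, since sham mouse 2 was lower than every vehicle mouse. On the log2 scale Gria2 differed from sham by -0.22 after vehicle (edgeR adjusted p = 0.493) and -0.28 after lactate (edgeR adjusted p = 0.285). With the offset for GC content and length the value after vehicle was -0.05. As a share of AMPA counts, Gria2 held 48.8% to 58.1% in sham, 45.2% to 56.1% after vehicle and 44.3% to 57.2% after lactate.

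Gria3 measured 79.8, 64.1, 75.2 and 68.9 CPM in the sham mice, 80.3, 63.5, 57.4 and 56.9 CPM in the vehicle mice and 51.5, 53.8, 54.9 and 67.0 CPM in the lactate mice. Lactate mouse 4 lay within the sham range and the other 3 below it. Lactate against sham gave -0.31 (edgeR adjusted p = 0.100) and lactate against vehicle -0.21 (edgeR adjusted p = 0.732). The first was -0.17 with the offset, and the second was -0.07 without vehicle mouse 1 and -0.11 by limma voom. Gria4, at 20.4 to 23.9 CPM after lactate and 24.97 to 32.2 CPM in sham, did not overlap between these groups and gave -0.33 (edgeR adjusted p = 0.117). Across the set, 5 of 33 members had all lactate mice below all sham mice, beside 8.74% of all genes: Gria4, Grin3a, Grm3, Grm8 and Gabrb2. No member had all lactate mice above sham, beside 10.4% of all genes.

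Kainate receptors are formed by GluK1 to GluK3 (Grik1 to Grik3) with the high-affinity subunits GluK4 and GluK5 (Grik4 and Grik5). None passed in any comparison. Of the 5 kainate genes, 2 lay below 0 and 3 above in vehicle against sham, and 3 below and 2 above in lactate against sham. Grik4 gave log2 fold changes of 0.66 after vehicle and 0.45 after lactate, and Grik5 gave 0.55 and 0.29. Vehicle mouse 1 was far above the other vehicle mice for Grik5, as given below. Grik2 had the smallest p of all members in lactate against vehicle. Grik2 measured 7.78, 9.70, 9.64 and 14.8 CPM in the sham mice, 12.4, 13.1, 12.2 and 8.95 CPM in the vehicle mice and 3.79, 5.75, 7.38 and 10.9 CPM in the lactate mice. One lactate mouse lay within the vehicle range and the other 3 below it. Lactate differed from vehicle by -0.76 on the log2 scale (95% interval -1.40 to -0.13, edgeR adjusted p = 0.524).

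Grik3 measured 8.57, 8.58, 6.38 and 5.30 CPM in the sham mice, 6.56, 4.27, 3.11 and 4.99 CPM in the vehicle mice and 3.79, 5.03, 5.80 and 5.10 CPM in the lactate mice. Both ischemic groups overlapped with sham. On the log2 scale Grik3 differed from sham by -0.56 after vehicle (edgeR adjusted p = 0.389) and -0.52 after lactate (edgeR adjusted p = 0.157). Delta receptors bind cerebellins and organise synapses, and Grid1, which encodes GluD1, did not pass in any comparison. Grid1 measured 2.77, 3.23, 3.94 and 3.82 CPM in the sham mice, 3.18, 1.81, 2.86 and 2.79 CPM in the vehicle mice and 1.35, 2.16, 1.45 and 2.78 CPM in the lactate mice. Lactate mouse 4 alone reached the sham range, and the log2 fold change of -0.78 in lactate against sham had an edgeR adjusted p of 0.102.

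Metabotropic glutamate receptors fall into postsynaptic group I (Grm5) and the mostly presynaptic groups II (Grm2 and Grm3) and III (Grm4, Grm6, Grm7 and Grm8), which lower transmitter release. None passed in any comparison. Grm8 had the smallest p after lactate. Grm8 measured 7.52, 5.46, 5.98 and 5.30 CPM in the sham mice, 7.21, 5.57, 4.61 and 3.23 CPM in the vehicle mice and 3.38, 4.07, 4.09 and 3.25 CPM in the lactate mice. The lactate mice lay below sham and the vehicle mice covered both ranges. In lactate against sham the log2 fold change was -0.68 (edgeR adjusted p = 0.0526) and lactate against vehicle -0.52 (95% interval -1.13 to 0.10), or -0.29 without vehicle mouse 1.

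Grm2 measured 8.04, 10.7, 8.96 and 5.92 CPM in the sham mice, 4.40, 7.90, 5.35 and 5.43 CPM in the vehicle mice and 7.03, 5.51, 5.67 and 6.03 CPM in the lactate mice. The groups overlapped, and vehicle against sham gave -0.52 (edgeR adjusted p = 0.402). Grm4 differed in the other direction, with 2.85 to 6.24 CPM in sham, 4.40 to 7.40 CPM after vehicle and 5.27 to 8.50 CPM after lactate, and gave 0.64 in lactate against sham (edgeR adjusted p = 0.131). Under a looser limit, an unadjusted p under 0.05 with a fold change of at least 1.5, lactate against sham gave 4 lower members (Gabrb2, Grid1, Grin3a and Grm8) and 1 higher (Grm4), beside 5.65% and 11.9% of all genes. Vehicle against sham gave 0 under that limit, beside 3.01% lower and 6.5% higher, and lactate against vehicle gave 1 lower (Grik2) and 0 higher, beside 2.47% and 3.76%.

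Vehicle mouse 1 stood apart in several members, 2 of which (Grik5 and Gabbr2) were chosen after their values were seen. Grik5 measured 71.8 CPM in this mouse and 19.4 to 25.5 CPM in the other vehicle mice. Gabbr2 measured 66.6 CPM in it and 17.2 to 21.6 CPM in the others. In this library 6.20% of 11837 genes lay more than 1 log2 unit from the other vehicle mice, against 1.44% to 2.96% in those mice. The difference of this library from the other vehicle mice correlated with transcript GC content at 0.23 and with log length at 0.21. In sham mouse 4 the same correlations were -0.26 and -0.07. The part of GC content and length in the values of vehicle mouse 1 was not tested. The shift was not one of all members, since Gabrb2 was 13.9 CPM there and Gabrg1 2.44 CPM, the lowest of the 12 mice for Gabrg1. Without this mouse the comparison of vehicle with sham still called 0 members.

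**Figure D4:**
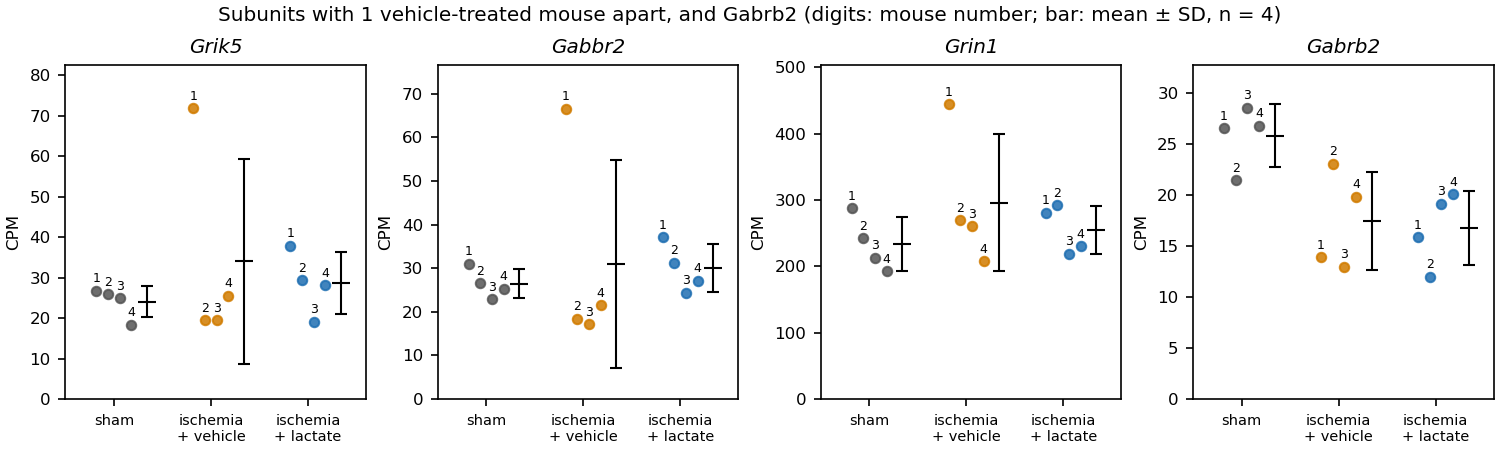
CPM (vertical axis, from 0) of Grik5, Gabbr2, Grin1 and Gabrb2 in each mouse, labelled with its number within the group, with the mean ± SD of each group of 4. Vehicle mouse 1 is the highest of the 12 mice for Grik5 (71.8 CPM), Gabbr2 (66.6 CPM) and Grin1 (445 CPM) but not for Gabrb2.

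The proteins that traffic, anchor and supply the receptors were followed in a list of 77 genes, which also held 6 GABA-A subunit genes outside the symbol rule. In vehicle against sham 0 of the 65 tested passed, and in lactate against vehicle 0 of 66. Lactate against sham called 2 of 66 lower and 1 higher, shares no larger than the 3.55% and 8.76% of all genes. Porcn, which acts in AMPA receptor assembly besides Wnt secretion, measured 119 to 153 CPM in sham and 85.4 to 118 CPM after lactate (log2 fold change -0.46, edgeR adjusted p = 0.0264). Cbln2, a secreted ligand of delta receptors, measured 17.5 to 25.8 CPM in sham and 9.33 to 15.1 CPM after lactate (log2 fold change -0.65, edgeR adjusted p = 0.0298).

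Slc1a4, a neutral amino acid transporter of the glutamate transporter family, was the one called higher, with 15.3 to 19.3 CPM in sham and 18.7 to 32.8 CPM after lactate (log2 fold change 0.64, edgeR adjusted p = 0.0279). No gene passed among 18 glutamate receptor scaffolds, with a median of -0.17 in lactate against sham, or among 12 GABA receptor partners, gephyrin included, with a median of -0.06. The 6 other GABA-A subunit genes, Gabre, Gabrp, Gabrq and the rho genes, together reached at most 1.36 CPM in any mouse and were not tested.

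Markers of other cell types also differed from sham in these brains, whereas no marker of any list was called in lactate against vehicle. Over all genes tested, 1.29% were called higher and 0.182% lower after vehicle, and 8.76% and 3.55% after lactate. In lactate against vehicle these shares were 0% and 0.00574%. Of 10 astrocyte markers, 1 (Gfap) was called higher in each comparison with sham, with log2 fold changes of 1.64 after vehicle (edgeR adjusted p = 0.0201) and 2.47 after lactate, and 1 (Sox9) was called lower after lactate. The astrocyte list summed to 6204 to 10187 CPM in sham, 9775 to 11502 CPM after vehicle and 9707 to 11502 CPM after lactate, with overlap. Of 10 microglial markers, 1 (C1qb) was called higher and 2 (Cx3cr1 and P2ry12) lower after vehicle, and 3 (C1qa, C1qb and C1qc) higher and 1 (P2ry12) lower after lactate. The microglial sums were 337 to 376, 290 to 382 and 466 to 503 CPM, so that the lactate mice lay above the rest. The mean sum was 351 CPM in sham and 485 CPM after lactate. C1qa, C1qb and C1qc had means of 37.9, 34.8 and 33.8 CPM in sham and 98.8, 81.1 and 68.3 CPM after lactate, and the other markers together did not rise. Of 7 blood and neutrophil markers, 2 (S100a8 and S100a9) were called higher in each comparison with sham and 4 (the hemoglobin genes) lower after lactate, with sums of 562 to 635, 344 to 547 and 404 to 518 CPM.

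Of 8 endothelial markers, 1 (Slc2a1) was called higher in each comparison with sham and 1 (Slco1a4) lower after lactate. The endothelial sums, 113 to 141 CPM in sham, 148 to 207 CPM after vehicle and 159 to 203 CPM after lactate, did not overlap with sham in either group. Their means were 129, 178 and 185 CPM, of which Slc2a1 alone held 45.3, 111 and 124 CPM. The median log2 fold change of the endothelial list was -0.02 after vehicle and -0.01 after lactate, so the sums do not describe the list as a whole. Of 8 oligodendrocyte markers, 0 were called after vehicle and 3 (Opalin, Mog and Cnp) lower after lactate, with sums of 7142 to 11409, 5633 to 10607 and 8944 to 9992 CPM. Of 10 markers of striatal projection neurons, 1 (Ppp1r1b) was called higher after lactate, with sums of 603 to 1008, 425 to 1179 and 928 to 1130 CPM. Ttr, the 1 choroid plexus marker tested, was called higher after lactate, and the list of 7 summed to 2.2 to 5.3 CPM in sham, 6.2 to 1847 CPM after vehicle, with the highest in vehicle mouse 2, and 10.1 to 19.5 CPM after lactate. No thalamic or oligodendrocyte precursor marker was called. The part of these cells in the receptor values was not tested.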

How the data were processed

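Brain RNA of 12 mice, 4 per group, was sequenced as cDNA on Nanopore PromethION. The authors removed short, low-quality and ribosomal reads and aligned the rest with minimap2. The submitters' notes name GRCm38 and DESeq 1.10.1. How reads were counted per gene, and whether strand was used, is not given in the sources used here. The deposited counts are whole reads per gene, and the deposited CPM are these counts scaled to the library total and not divided by length. Columns with the authors' edgeR p-values and log2 fold changes were not used. Groups came from the sample titles. Counts were tested with edgeR 4.0.16 (quasi-likelihood, TMM, Benjamini-Hochberg adjustment over all genes tested) in 3 pairwise fits of 8 mice, for genes with CPM of at least 1 in at least 4 mice, after tests on simulated data. Alternatives used DESeq2 1.42.0, limma 3.58.1 (voom) and other settings. Fold changes are given on the log2 scale with 95% intervals. The members and lists were chosen with earlier results of these data known. Values in every mouse are given for members called in any comparison and for the member with the smallest p of each family and comparison; Gabrd and others named beyond this were chosen after their values were seen. A few items, 5 of the 41 members among them, are not reported here. Coordinates are from GENCODE M21 (GRCm38), which matched the 36 members, and promoters from RefSeq (GRCm38.p6). Replicates are separate samples by their labels; where they are not independent animals, p-values measure only the spread between samples. Precision rests on totals of 6815920 to 10677224 counts per mouse, and limits of 3 counts cover counting error only.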

Additional observations from a re-analysis of the deposited data

Results flagged for a closer look

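In groups of 4 mice, Dixon's test for a single value far from the rest marked 4 of the 60 member and family values examined, and chance marks about 1 in 20. Gabbr1 in sham mouse 2 measured 227.4 CPM, against 330.2 to 336.7 CPM in the other sham mice. The summed GABA-B level of the same mouse was 253.9 CPM, against 355.7 to 361.2 CPM. The summed kainate receptor level of vehicle mouse 1 was 104.1 CPM, against 45.6 to 50.1 CPM in the other vehicle mice. The sum over the 36 members in vehicle mouse 1 was 2104 CPM, against 1582 to 1667 CPM.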

How the results depend on the processing

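In vehicle against sham, 0 members were called under every setting run. In lactate against sham the 1 member called, Gabrb2, became 3 without a filter on low counts (Gabrd and Grin3a added), 2 with DESeq2 or limma voom (Grin3a added) and 0 in a fit of all 12 mice, with Ensembl genes only or with the added offset for GC content and length. The count ran from 0 to 3 when 1 mouse was left out. It was 3 without lactate mouse 4, which added Gabrd and Grin2b, 1 without lactate mouse 2, where Grin3a was called and Gabrb2 was not, and 0 without sham mouse 1, 3 or 4 or lactate mouse 1 or 3. An unadjusted p under 0.05 with a fold change of at least 1.5 gave 5 in all, 1 of them higher, and in lactate against vehicle 1, which was lower. The cause was not tested. The Gabrb2 difference of lactate against vehicle changed sign near 0 when 1 mouse was left out and ran from -0.196 to 0.0905. The correlations of same-numbered mice between groups were -0.15 to 0.16. Mice with different numbers were not compared between groups, so these values cannot settle whether the numbers pair the mice. With the mouse number as a replicate block, 0, 2 and 0 members were called, adding Grin2b (log2 fold change -0.46, edgeR adjusted p = 0.0296) in lactate against sham. With 4 mice per group, 33 or 34 members tested and CPM not divided by length, small differences and levels between genes are beyond these data. Counts per mouse were low for Grm6, Grin2d, Grin3b, Grid1 and Grik4, the last with 7 counts in sham mouse 4.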
